A study of Mus musculus with 6 samples.

Results

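The genes of the proteasome were examined in tibialis anterior, a mixed limb muscle of the mouse, on 3 Affymetrix arrays of muscle from MLC-SOCS-3 transgenic mice on the C57Bl6J background and 3 arrays of muscle from control C57Bl6J mice. The members were chosen by name: every probe set whose only gene symbol in the platform annotation begins with Psma, Psmb, Psmc, Psmd or Psme followed by a digit. This gave 51 probe sets for 45 genes of the 19938 genes on the array, and each gene was represented by the probe set with the highest mean over the 6 arrays. Mice of both groups were 11 weeks old, all had been starved for 6 h, and cRNA was labelled from 300 ng of total RNA. The transgene encodes SOCS-3, a suppressor of cytokine signalling that inhibits JAK-STAT signalling. The labels do not spell out MLC, the promoter of the transgene or the number of lines, and they do not say whether each replicate is a different animal. The p-values may therefore reflect technical spread alone.

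The proteasome degrades proteins that carry ubiquitin chains and, in muscle, carries out much of the protein breakdown of fasting and disuse. Its 20S core is a barrel of alpha rings, which gate the entrance, and beta rings, which hold the proteolytic sites. A 19S cap of ATPase (Psmc) and non-ATPase (Psmd) subunits binds, unfolds and feeds in the substrate, and other activators (Psme) can take the place of the cap. After interferon stimulation, the catalytic subunits encoded by Psmb5, Psmb6 and Psmb7 are exchanged in newly made cores for those of Psmb8, Psmb9 and Psmb10, which gives the immunoproteasome, a form that is abundant in immune cells.

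Values are log2 RMA intensities, and differences are log2 values of MLC-SOCS-3 minus control with limma's moderated standard error. Probe sets differ in how well they hybridise, so levels are read against the median probe set, at 5.99, and not ranked between genes. Array medians ran from 5.98 to 6.04. The tissue label was checked on 11 genes of skeletal muscle fibres, such as the actin gene Acta1 and the creatine kinase gene Ckm. Their mean intensity was 13.87 to 13.91 on the MLC-SOCS-3 arrays and 13.90 to 13.96 on the control arrays. The smallest p-values of these genes in limma belonged to Myh2, Myh1 and Tnni2, each without overlap between the groups. Over all genes 12.3% did not overlap. For Myh2, control replicate 1 stood apart at 12.52, beside 11.97 and 12.01 on control replicates 2 and 3. Myh2 differed by -0.30 ± 0.15, Myh1 by 0.060 ± 0.06 and Tnni2 by -0.046 ± 0.06 (limma adjusted p = 0.86, 0.89 and 0.92). Socs3 itself read 7.07, 7.12 and 7.25 on the MLC-SOCS-3 arrays, against 7.37, 7.41 and 7.43 on the control arrays, a difference of -0.26 ± 0.07 (limma adjusted p = 0.80). The transgene's label thus did not go with a higher value, and the sources used here do not say whether the probes lie in the part of the gene that the transgene carries. Directions are those of the arrays under their labels.

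No proteasome gene passed limma's test over all 35557 probe sets at an adjusted p under 0.05, which called 0 probe sets in all (0% of those tested). The smallest adjusted p among the 45 members was 0.82. The median difference of the members was -0.0054, beside -0.016 over all 19938 genes. Of the 45 members, 22 were higher and 23 lower in MLC-SOCS-3 muscle, and the differences ran from -0.17 for Psmb10 to 0.14 for Psma1. At an unadjusted p under 0.05, 1 member was lower (Psmb10), against 3.5% of all genes, and 0 members were higher, against 1.36% of all genes (4.86% in either direction). With each array centred on its median the split was 1 higher (Psma1) and 0 lower. The values of the 3 MLC-SOCS-3 arrays all lay outside the range of the controls for 4 members in the higher direction, against 4.52% of all genes. The same held for 2 members in the lower direction, against 7.76% of all genes, and together these 6 members stand beside 12.3% of all genes without overlap in either direction. In either direction both shares of members were thus near the background. By direction, more members were higher than lower without overlap, while more of all genes were lower. Of the 2064 genes in the intensity range of the constitutive 20S and 19S genes, 163 were higher and 122 lower without overlap.

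The intervals show how narrow these measurements were. The 95% interval of the difference lay within a 1.25-fold change in either direction for 41 of the 45 members, and the intervals of Psma8, Psmb8, Psmb9 and Psmd5 reached beyond it. Within a 1.3-fold change lay 44 members, all but the dim gene Psma8, whose interval reached 1.32-fold. Both bounds were set after the values were seen, the tighter one first. All 31 constitutive 20S and 19S genes above the median probe set lay within 1.25-fold, against 85.4% of the 2064 genes in the same intensity range and 51.8% of all genes. Within 1.3-fold these shares of other genes were 91.1% and 66.3%. The median residual SD of these 31 genes was 0.068, beside 0.066 for the 2064 genes, so the spread between arrays resembled that of other genes of that intensity.

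**Figure D1:**
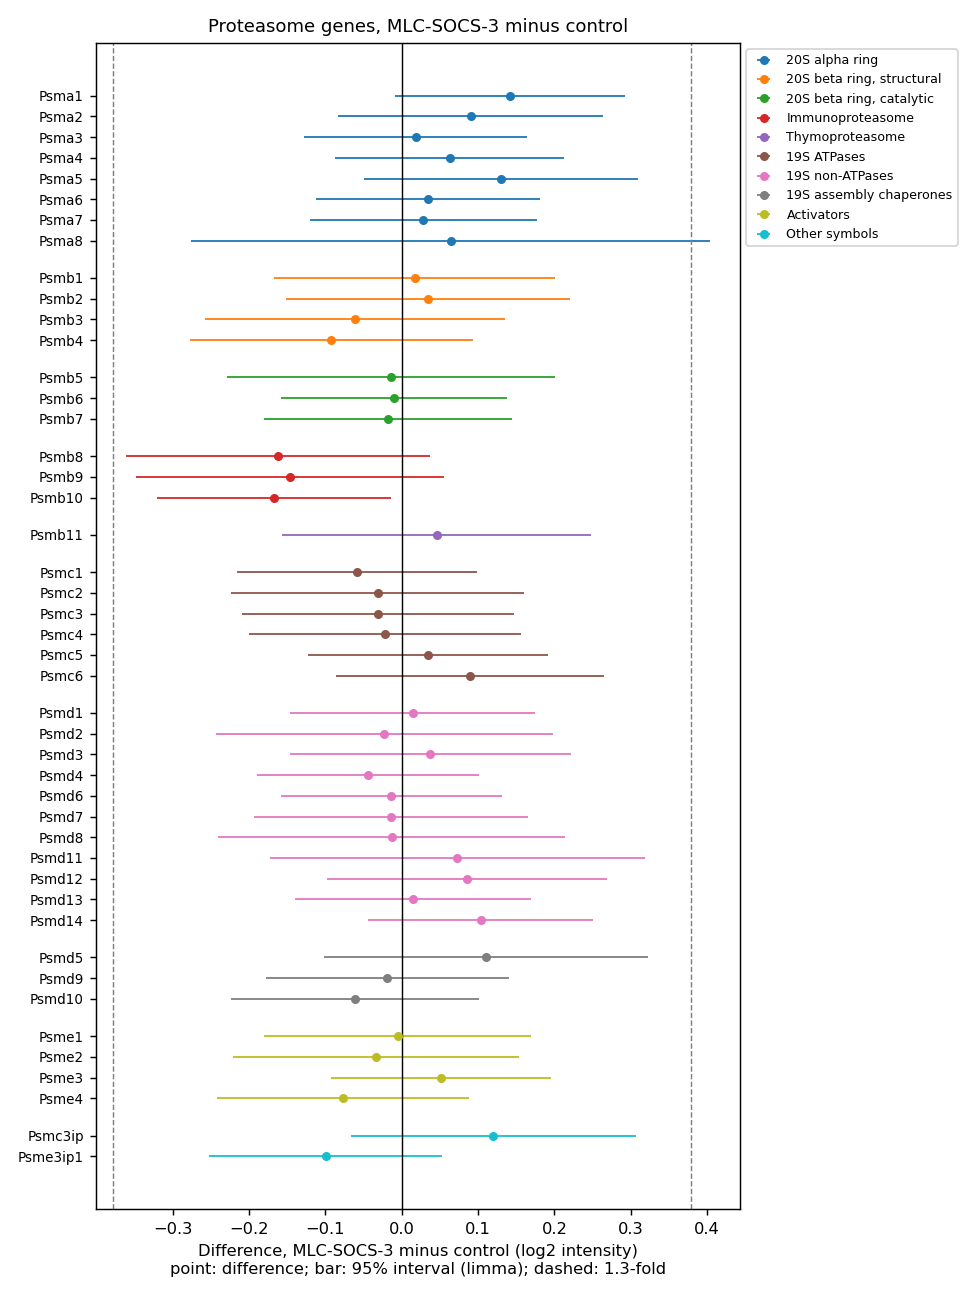
Difference in log2 intensity, MLC-SOCS-3 minus control, for each of the 45 proteasome genes (points) with limma's 95% interval (bars, n = 3 arrays per group), coloured and spaced by type of subunit; dashed lines mark 1.3-fold. All 8 alpha-ring points lie right of 0 and the 3 immunoproteasome points lie furthest left, and only the interval of Psmb10 does not cross 0.

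The 3 immunoproteasome genes had the most negative differences of all members. Psmb10, whose product carries the trypsin-like site of the immunoproteasome, read 7.24, 7.23 and 7.33 on MLC-SOCS-3 replicates 1 to 3, against 7.45, 7.44 and 7.41 on control replicates 1 to 3. The groups did not overlap, and the difference was -0.17 ± 0.06 (SE), a 1.12-fold lower intensity with a 95% interval of -0.32 to -0.014. Its unadjusted p in limma was 0.0367 and its adjusted p 0.82. Psmb8, which encodes the chymotrypsin-like subunit, read 7.04, 6.996 and 6.87 on the MLC-SOCS-3 arrays, against 7.03, 7.17 and 7.19 on the control arrays. MLC-SOCS-3 replicate 1 lay just above control replicate 1, so the groups overlapped, and the difference was -0.16 ± 0.08 (adjusted p = 0.85). For Psmb9, the immune counterpart of Psmb6, the readings were 7.87, 7.65 and 7.64 on the MLC-SOCS-3 arrays and 7.88, 7.86 and 7.85 on the control arrays. Here MLC-SOCS-3 replicate 1 lay within the control range while replicates 2 and 3 lay below it, and the difference was -0.15 ± 0.08 (adjusted p = 0.86). The median of the 3 genes was -0.16, and all 3 differences stayed negative under each of the 13 alternatives, leaving out any 1 array included. Only the 2 normalizations and leaving out an array could change the differences of these genes. The unadjusted p of Psmb10 was not under 0.05 without MLC-SOCS-3 replicate 1 or 2 or without any 1 of the controls. Without MLC-SOCS-3 replicate 1 it was Psmb9 that had an unadjusted p under 0.05, and the median of the 3 genes was -0.20.

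Their constitutive counterparts, which carry the same kinds of proteolytic site in most tissues, showed differences close to 0. Psmb5, the constitutive chymotrypsin-like subunit, read 10.28, 10.07 and 10.27 on the MLC-SOCS-3 arrays and 10.31, 10.15 and 10.21 on the control arrays, a difference of -0.014 ± 0.09. Psmb6, the caspase-like subunit, read 11.18, 11.22 and 11.26 on the MLC-SOCS-3 arrays and 11.20, 11.24 and 11.26 on the control arrays, a difference of -0.0096 ± 0.06. Psmb7, the trypsin-like subunit, read 12.19, 12.10 and 12.15 on the MLC-SOCS-3 arrays and 12.22, 12.10 and 12.18 on the control arrays, a difference of -0.018 ± 0.07. For these 3 genes the groups overlapped throughout, adjusted p-values were 0.98 or 0.99, and the signs turned positive when each array was centred on its median. The mean deviation of the immunoproteasome genes minus that of the constitutive counterparts was -0.033, -0.037 and -0.15 on MLC-SOCS-3 replicates 1 to 3, against 0.015, 0.13 and 0.069 on control replicates 1 to 3. On this scale the gap was below 0 on every MLC-SOCS-3 array and above 0 on every control array. MLC-SOCS-3 replicate 1 and control replicate 1 lay only a little apart.

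**Figure D2:**
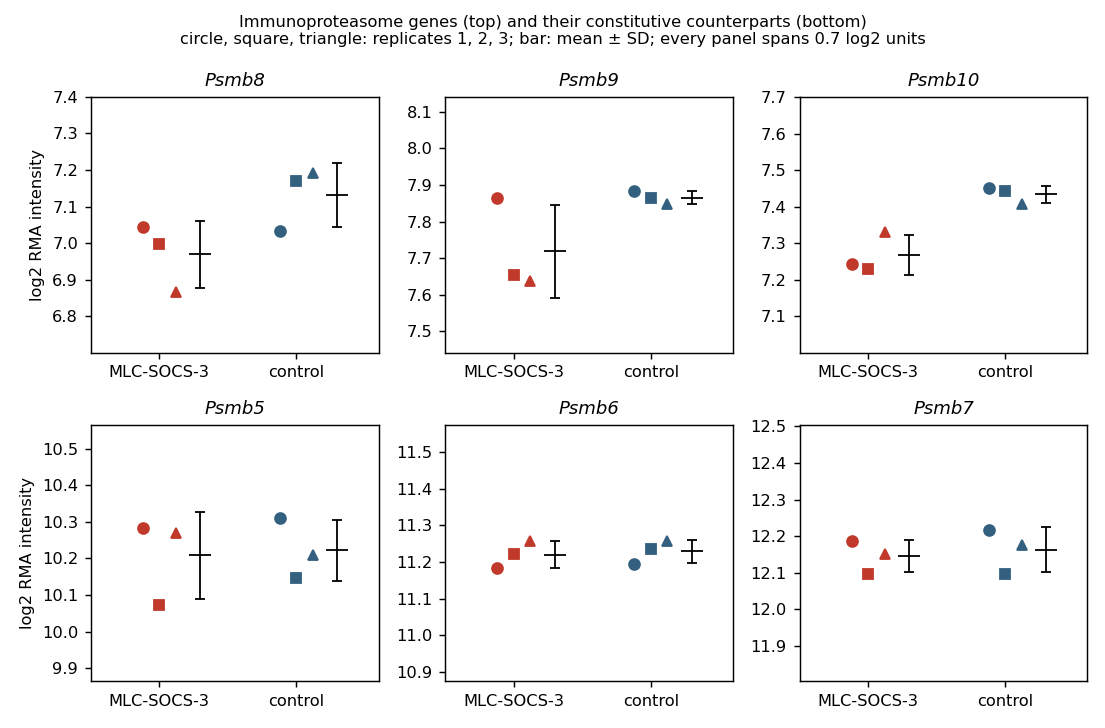
Log2 RMA intensity of the 3 immunoproteasome genes (top row) and their constitutive counterparts (bottom row) on each array, with MLC-SOCS-3 arrays on the left and control arrays on the right of each panel; markers stand for replicates and bars for the mean ± SD (n = 3 per group). Psmb10 shows no overlap between the groups, Psmb8 and Psmb9 overlap through MLC-SOCS-3 replicate 1, and Psmb5, Psmb6 and Psmb7 overlap throughout.

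Promoter sequence is shown for these catalytic genes because they differ in what controls them: interferon signalling through STAT and IRF factors for the immune subunits, and, in cells short of proteasome activity, the factor NFE2L1 for the constitutive ones. RefSeq windows of 300 bases on GRCm38.p6, from 250 before to 50 after the annotated start, were matched for 38 of the 45 members, Psmb7 not among them. The motifs searched on both strands were TTCNNNGAA, a STAT palindrome, an IRF element made of GAAA, any 2 bases and GAAA again, TGACNNNGC, the antioxidant response core that NFE2L factors read, and CCAAT, the CCAAT box. In all 7 motifs were searched, and the other three, which none of the windows shown here holds, were the palindrome of nuclear respiratory factor 1, GCGCA followed by TGCGC, the AP-1 site TGACTCA and its extended form TGACTCAGC. All were chosen with the values known. Matches in the windows below are in capitals and do not overlap one another.
Psmb8 (chr17:34197945-34198244, plus strand): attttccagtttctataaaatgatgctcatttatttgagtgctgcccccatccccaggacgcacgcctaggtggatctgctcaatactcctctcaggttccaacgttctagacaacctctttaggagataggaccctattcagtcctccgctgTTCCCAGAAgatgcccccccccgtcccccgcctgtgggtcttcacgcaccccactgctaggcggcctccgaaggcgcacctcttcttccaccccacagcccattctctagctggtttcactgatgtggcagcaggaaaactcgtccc
Psmb9 (chr17:34187281-34187580, minus strand): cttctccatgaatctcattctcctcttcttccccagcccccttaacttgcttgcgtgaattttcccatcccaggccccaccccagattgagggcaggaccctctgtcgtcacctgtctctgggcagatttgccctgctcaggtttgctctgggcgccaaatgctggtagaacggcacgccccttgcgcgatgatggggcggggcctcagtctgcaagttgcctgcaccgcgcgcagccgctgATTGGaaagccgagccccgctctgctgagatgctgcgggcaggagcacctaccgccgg
Psmb10 (chr8:105938343-105938642, minus strand): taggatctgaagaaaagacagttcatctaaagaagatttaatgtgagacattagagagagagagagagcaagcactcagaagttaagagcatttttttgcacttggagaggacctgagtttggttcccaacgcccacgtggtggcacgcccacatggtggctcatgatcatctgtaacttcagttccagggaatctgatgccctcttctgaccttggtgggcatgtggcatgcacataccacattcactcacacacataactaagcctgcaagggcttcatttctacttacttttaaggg
Psmb5 (chr14:54617946-54618245, minus strand): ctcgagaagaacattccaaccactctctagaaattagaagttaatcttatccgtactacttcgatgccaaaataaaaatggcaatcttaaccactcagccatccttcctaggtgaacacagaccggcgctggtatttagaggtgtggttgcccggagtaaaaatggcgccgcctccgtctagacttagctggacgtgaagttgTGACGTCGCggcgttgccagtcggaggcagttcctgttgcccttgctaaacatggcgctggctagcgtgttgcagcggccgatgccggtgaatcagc
Psmb6 (chr11:70525107-70525406, plus strand): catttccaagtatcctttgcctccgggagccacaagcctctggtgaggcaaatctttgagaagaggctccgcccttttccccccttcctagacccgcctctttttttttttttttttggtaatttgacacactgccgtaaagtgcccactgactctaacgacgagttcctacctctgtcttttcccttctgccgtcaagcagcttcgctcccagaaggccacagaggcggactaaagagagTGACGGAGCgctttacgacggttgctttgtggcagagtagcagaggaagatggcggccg

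The Psmb8 window held the STAT palindrome TTCCCAGAA, the Psmb9 window a CCAAT box read on the other strand as ATTGG, and the Psmb10 window none of the 7 motifs. The windows of Psmb5 and Psmb6 each held 1 antioxidant response core, TGACGTCGC and TGACGGAGC. Over all member windows the STAT palindrome occurred in 2 of 42 (4.76%), beside 8.30% of all 32851 windows of the same length, and the IRF element in 4 (9.52%), beside 3.44%. The windows with the IRF element were those of Psmb3, Psmd4, Psmd9 and Psme1, with no immunoproteasome gene among them. The antioxidant response core occurred in 6 (14.3%, beside 12.4%) and the CCAAT box in 16 (38.1%, beside 37.4%). The respiratory factor palindrome occurred in 1 window (2.38%, beside 0.971%), that of Psma2, the AP-1 site in 1 (2.38%, beside 5.20%), that of Psmd9, and its extended form in 0, beside 0.454%. These matches describe letters in the windows and say nothing on binding in this muscle.

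Genes of antigen presentation, which work with the immunoproteasome, lay mostly on the same side. Of the 7 measured genes, 6 were lower and 1 higher in MLC-SOCS-3 muscle, with a median of -0.15, while 11210 of all 19938 genes were lower, and none passed the test over all probe sets. Irf1, a transcription factor induced by interferon, read 6.46, 6.66 and 6.67 on the MLC-SOCS-3 arrays, against 6.80, 6.69 and 6.95 on the control arrays, a difference of -0.21 ± 0.10 (adjusted p = 0.83). Nlrc5, a coactivator of MHC class I genes, read 9.75, 9.76 and 9.83 on the MLC-SOCS-3 arrays, against 9.89, 9.91 and 9.89 on the control arrays, a difference of -0.11 ± 0.06 (adjusted p = 0.86). These were the 2 genes of the list whose groups did not overlap, both in the lower direction, in which 7.76% of all genes did not overlap. The light chain gene B2m, with readings of 10.83, 10.44 and 10.70 on the MLC-SOCS-3 arrays and 10.75, 10.85 and 10.95 on the control arrays, differed by -0.20 ± 0.12 (adjusted p = 0.86).

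Leukocytes hold abundant immunoproteasome, so their markers were measured beside it. In whole muscle, fewer cells of a type and less RNA per cell cannot be told apart. Of 11 measured leukocyte markers, 9 were higher and 2 lower in MLC-SOCS-3 muscle, with a median of 0.063, while 43.8% of all genes were higher. Their mean intensity was 6.09 to 6.36 on the MLC-SOCS-3 arrays and 6.07 to 6.24 on the control arrays. Itgam, an integrin of myeloid cells, differed by 0.57 ± 0.11 (adjusted p = 0.73) and the T cell receptor gene Cd3g by -0.30 ± 0.09 (adjusted p = 0.80). Cd68, a macrophage marker, differed by 0.51 ± 0.29 (adjusted p = 0.86) with overlapping groups. It read 6.34, 7.21 and 7.49 on MLC-SOCS-3 replicates 1 to 3, against 6.54, 6.49 and 6.47 on control replicates 1 to 3. MLC-SOCS-3 replicate 1 was thus its lowest array. Itgam, Cd52, Cd3g and Cd79a lay below the median probe set. The 5 fibroblast markers were all higher (median 0.16), from 0.047 for Dcn to 0.43 for Lum. Their smallest p was that of Pdgfra at 0.16 ± 0.07 (limma adjusted p = 0.83). Of 5 endothelial markers 2 were higher and 3 lower, with a median of -0.025. Pecam1 differed by 0.14 ± 0.07, Kdr by -0.24 ± 0.14 and Cdh5 by -0.070 ± 0.09. The part of these cell types in the immunoproteasome values was not tested.

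**Figure D3:**
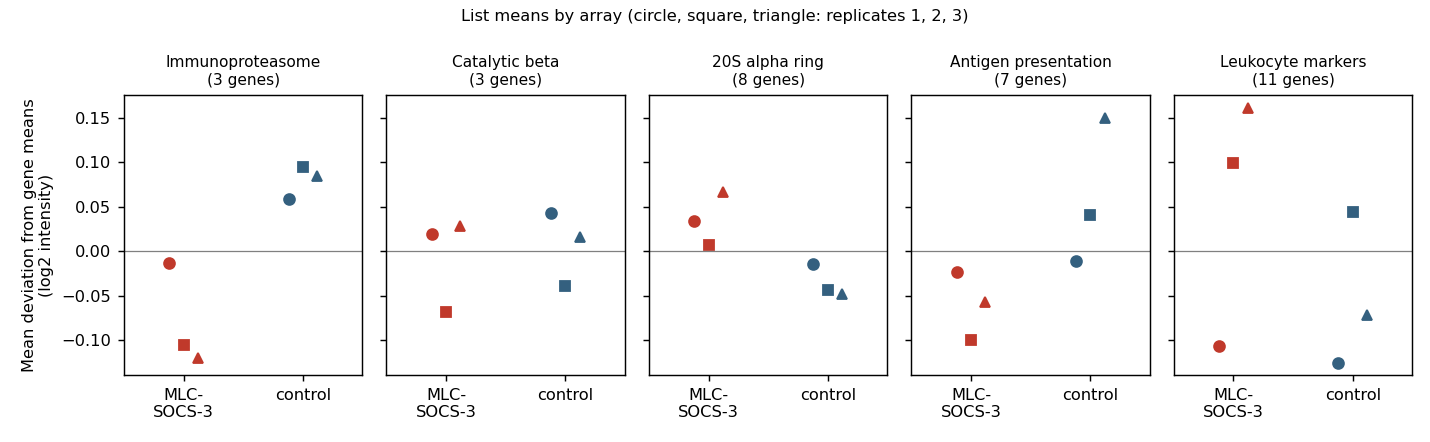
Mean deviation from the gene means (log2 intensity) for 5 lists on each array, MLC-SOCS-3 arrays on the left and control arrays on the right of each panel; each marker is 1 array. The immunoproteasome means lie lower on the 3 MLC-SOCS-3 arrays (-0.12 to -0.013) than on the controls (0.058 to 0.095), the alpha ring means lie higher, and the leukocyte means overlap.

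Genes of the alpha ring, the gate of the core, leaned the other way. All 8 differences were positive, from 0.018 for Psma3 to 0.14 for Psma1, with a median of 0.064, while 43.8% of all genes, 50.5% of the genes above the median probe set and 58.4% of the 2064 genes in the intensity range of the constitutive 20S and 19S genes were positive. Without control replicate 2 or 3, 7 of the 8 were positive. Psma1 read 10.47, 10.51 and 10.57 on MLC-SOCS-3 replicates 1 to 3, against 10.38, 10.38 and 10.37 on control replicates 1 to 3. Its groups did not overlap, the controls lay almost on top of one another, and the difference was 0.14 ± 0.06, a 1.1-fold higher intensity (interval -0.0087 to 0.29, adjusted p = 0.83). Psma5 read 9.85, 9.86 and 9.93 on the MLC-SOCS-3 arrays, against 9.73, 9.67 and 9.85 on the control arrays. Its groups were separated only by the narrowest margin, between MLC-SOCS-3 replicate 1 and control replicate 3, and the difference was 0.13 ± 0.07 (adjusted p = 0.86). A second, dimmer probe set of Psma5 gave 0.10 ± 0.09 with overlapping groups. Psma2, at 9.50, 9.58 and 9.60 on the MLC-SOCS-3 arrays and 9.48, 9.39 and 9.54 on the control arrays, differed by 0.090 ± 0.07 and its groups overlapped. The other ring genes Psma3, Psma4, Psma6 and Psma7 differed by 0.018 to 0.063 with overlapping groups, and the other Psma3 probe sets gave 0.023 and 0.00028.

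In the constitutive beta ring the split of signs turned with the scaling. Of its 7 genes 2 were positive and 5 negative, or 5 positive and 2 negative once each array was centred on its median, and 3 were negative without MLC-SOCS-3 replicate 2 or without control replicate 1. The difference between the rings was not tested. Psmb4, a structural beta subunit, had the largest of these differences, with 10.55, 10.46 and 10.41 on the MLC-SOCS-3 arrays and 10.66, 10.54 and 10.50 on the control arrays, a difference of -0.092 ± 0.08 (adjusted p = 0.87) that was -0.046 without control replicate 1. Psmb1, Psmb2 and Psmb3, which also build the ring without a proteolytic site, differed by 0.017, 0.034 and -0.061, and the second probe set of Psmb3 gave -0.044. The mean deviation of the alpha genes minus that of the constitutive beta genes was -0.014, 0.079 and 0.073 on MLC-SOCS-3 replicates 1 to 3, against -0.076, -0.032 and -0.030 on control replicates 1 to 3. The MLC-SOCS-3 arrays were the higher ones, with replicate 1 closest to the controls.

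Both genes for tissue-restricted core subunits lay below the median probe set. Psma8, an alpha subunit of the testis, read 4.62, 4.33 and 4.59 on the MLC-SOCS-3 arrays and 4.62, 4.54 and 4.20 on the control arrays, a difference of 0.064 ± 0.14. Psmb11, the thymus-specific catalytic subunit, read 5.71, 5.52 and 5.47 on the MLC-SOCS-3 arrays and 5.54, 5.53 and 5.49 on the control arrays, a difference of 0.046 ± 0.08. Folds of such dim probe sets are compressed, and for both genes the groups overlapped.

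In the 19S cap the ATPases that unfold the substrate gave 2 positive and 4 negative differences, with a median of -0.027. Psmc6 had the largest positive one. It read 11.12, 11.30 and 11.25 on the MLC-SOCS-3 arrays and 11.11, 11.14 and 11.16 on the control arrays, with MLC-SOCS-3 replicate 1 inside the control range, and differed by 0.090 ± 0.07 (adjusted p = 0.87). Psmc1 had the most negative one. It read 10.43, 10.32 and 10.35 on the MLC-SOCS-3 arrays and 10.44, 10.44 and 10.39 on the control arrays, differing by -0.058 ± 0.06, but its second probe set gave a difference of the other sign, 0.044 ± 0.06. Psmc2, Psmc3, Psmc4 and Psmc5 differed by -0.031, -0.031, -0.022 and 0.034.

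The 11 non-ATPase subunits of the cap, which bind and deubiquitinate substrates, gave 6 positive and 5 negative differences with a median of 0.015. Psmd14, the deubiquitinase that removes ubiquitin chains as the substrate enters, read 10.35, 10.42 and 10.43 on the MLC-SOCS-3 arrays, against 10.28, 10.29 and 10.32 on the control arrays. Its groups did not overlap, and the difference was 0.10 ± 0.06 (interval -0.044 to 0.25, adjusted p = 0.86). Psmd12, a scaffold subunit of the lid, read 10.80, 10.77 and 10.90 on the MLC-SOCS-3 arrays and 10.77, 10.65 and 10.80 on the control arrays, with overlap, and differed by 0.086 ± 0.08 (adjusted p = 0.88). Without control replicate 2 the difference of Psmd12 was 0.041, and without MLC-SOCS-3 replicate 3 it was 0.046. Psmd11, another lid subunit, differed by 0.073 ± 0.10 and rested on MLC-SOCS-3 replicate 3, which read 10.63 beside 10.38 and 10.36 on the other MLC-SOCS-3 arrays and 10.33 to 10.50 on the controls. The ubiquitin receptor Psmd4 and the large base subunits Psmd1 and Psmd2 differed by -0.044, 0.015 and -0.023. The other 5, Psmd3, Psmd6, Psmd7, Psmd8 and Psmd13, lay between -0.014 and 0.037.

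The assembly chaperones of the cap, which hold ATPases together before the cap is complete, differed in both directions. Psmd5 read 7.95, 8.07 and 8.01 on the MLC-SOCS-3 arrays and 8.002, 7.76 and 7.94 on the control arrays. Control replicate 2 was the low array, and the difference was 0.11 ± 0.09 (adjusted p = 0.87), or 0.040 without that array. Psmd10, also known as gankyrin, read 8.57, 8.504 and 8.54 on the MLC-SOCS-3 arrays and 8.58, 8.54 and 8.67 on the control arrays, a difference of -0.061 ± 0.07. Psmd9 differed by -0.019.

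Among the activators, Psme1 and Psme2 encode the PA28 alpha and beta subunits, which like the immunoproteasome genes are induced by interferon. Psme1 read 9.61, 9.73 and 9.68 on the MLC-SOCS-3 arrays and 9.60, 9.72 and 9.72 on the control arrays, a difference of -0.0054 ± 0.07. Psme2 read 8.42, 8.37 and 8.20 on the MLC-SOCS-3 arrays and 8.37, 8.36 and 8.37 on the control arrays, where only MLC-SOCS-3 replicate 3 stood apart, and differed by -0.034 ± 0.08. The probe set shared by Psme2 and its near-identical copy Psme2b, which was not a member, gave 0.013. PA28 genes thus lay nearer 0 than the 3 immunoproteasome genes, and the difference between these sets was not tested. Psme3, the nuclear activator PA28 gamma, read 9.68, 9.69 and 9.69 on the MLC-SOCS-3 arrays, against 9.68, 9.60 and 9.63 on the control arrays, without overlap but by only 0.052 ± 0.06 (adjusted p = 0.91). Psme4, the activator PA200, read 11.44, 11.31 and 11.37 on the MLC-SOCS-3 arrays and 11.48, 11.40 and 11.47 on the control arrays, a difference of -0.077 ± 0.07 (adjusted p = 0.88).

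Names that meet the rule are not all subunits. Psmc3ip, a recombination factor of meiosis that was named for binding Psmc3, read 6.30, 6.46 and 6.40 on the MLC-SOCS-3 arrays and 6.35, 6.21 and 6.23 on the control arrays, a difference of 0.12 ± 0.08. Psme3ip1, a protein that binds PA28 gamma, read 8.04, 8.06 and 8.06 on the MLC-SOCS-3 arrays, against 8.19, 8.09 and 8.18 on the control arrays. Its groups did not overlap, and the difference was -0.100 ± 0.06 (adjusted p = 0.86). Without these 2 genes and the assembly chaperones, the median of the other 40 members was 0.0046.

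Genes of the 19S cap shared a low array, though it was not particular to them. MLC-SOCS-3 replicate 2 was the lowest of the 6 arrays for 10 of the 17 subunits of the 19S cap, 5 of the 6 ATPases among them, while over the genes above the median probe set it was lowest for 18.1%. It was lowest for 0 of the 8 alpha-ring genes and for 2 of the 7 constitutive beta genes. The mean deviation on this array was -0.071 for those 7 beta genes and -0.10 for the 3 immunoproteasome genes. For the alpha ring it was 0.0074. The mean deviation of the 17 cap genes was 0.020, -0.052 and 0.050 on MLC-SOCS-3 replicates 1 to 3, against 0.028, -0.022 and -0.024 on control replicates 1 to 3, so the MLC-SOCS-3 arrays spanned a wider range than the controls and enclosed them. Without MLC-SOCS-3 replicate 2 the median difference of all members was 0.039, and without control replicate 1 it was 0.024, against -0.0054 with all arrays.

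**Figure D4:**
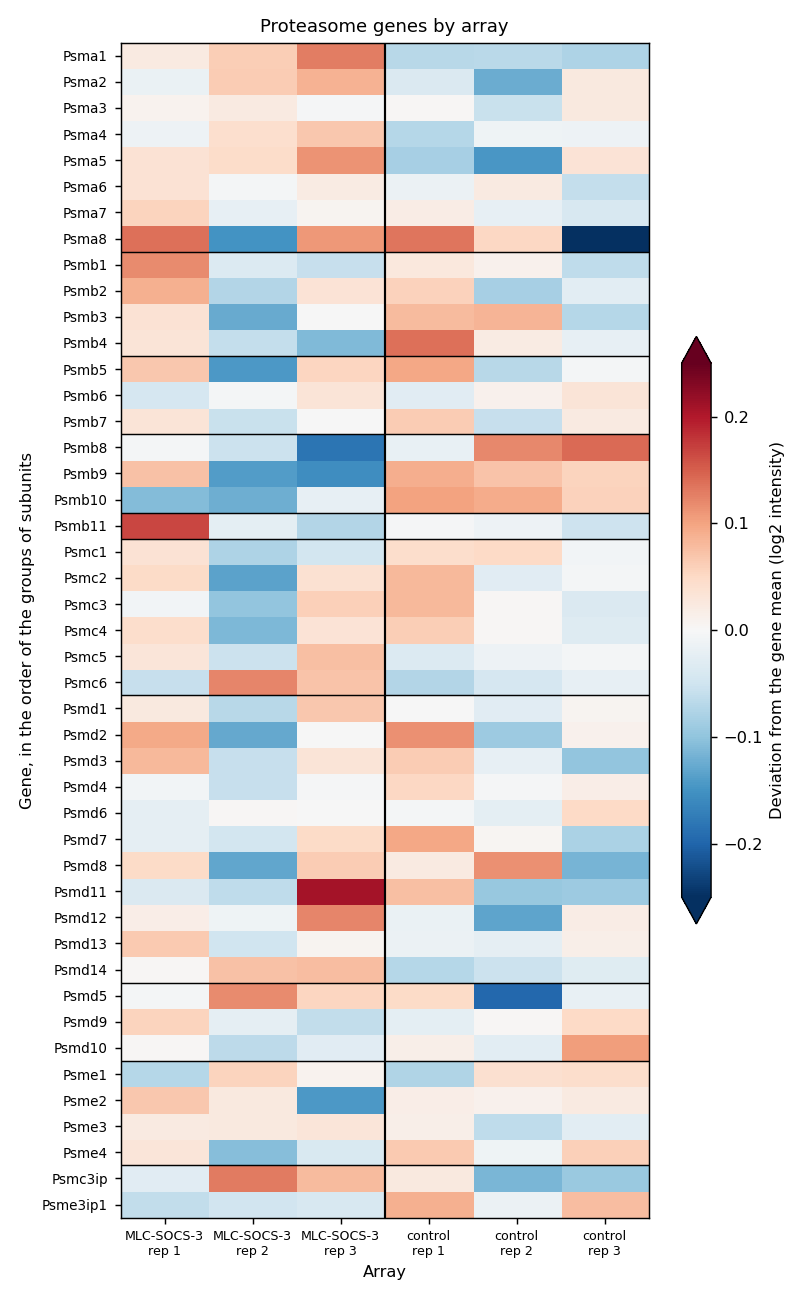
Deviation of each proteasome gene (rows, in the order of the groups of subunits) from its own mean over the 6 arrays (columns, MLC-SOCS-3 left of the vertical line and control right of it), in log2 intensity, with the colour scale ending at 0.25 in either direction. The column of MLC-SOCS-3 replicate 2 is blue through most of the Psmc and Psmd rows, and the rows of Psmb8, Psmb9 and Psmb10 are blue to the left and red to the right apart from single cells.

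The genes that assemble, regulate and supply the proteasome gave no call over all probe sets either. All 6 genes for assembly of the core and its inhibitor were measured, with 3 positive differences and a median of 0.0077. Psmg1, an assembly chaperone of the alpha ring, differed by 0.12 ± 0.07 (adjusted p = 0.86), Pomp, which matures the core, by -0.044 ± 0.07 and Psmg3 by 0.024 ± 0.07. All 6 measured partners of the cap were positive, with a median of 0.060, while Adrm1 and Paaf1, also listed, were not measured. Of the genes above the median probe set 50.5% were positive. The share was 58.4% of the 2064 genes in the intensity range of the constitutive 20S and 19S genes. Of these Txnl1, a thioredoxin-like protein bound to the cap, read 9.81, 9.81 and 9.84 on the MLC-SOCS-3 arrays, against 9.67, 9.76 and 9.66 on the control arrays, without overlap, a difference of 0.12 ± 0.06 (adjusted p = 0.86). Uchl5, a deubiquitinase of the cap, differed by 0.11 ± 0.10 and the ubiquitin ligase gene Ube3c by 0.069 ± 0.08. Nfe2l1, which raises the transcription of proteasome genes when activity is short, differed by -0.056 ± 0.08, its relative Nfe2l2 by -0.051 ± 0.08 and Ngly1, the glycanase that activates NFE2L1, by 0.024 ± 0.07.

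Of 8 measured genes of shuttle factors and the p97 segregase, 4 were positive, with a median of 0.0056. Ufd1, a cofactor with which p97 extracts ubiquitinated proteins, read 9.81, 9.72 and 9.76 on the MLC-SOCS-3 arrays, against 9.63, 9.42 and 9.58 on the control arrays. The groups did not overlap, and its difference of 0.22 ± 0.08 had the smallest p of the list (unadjusted 0.03, adjusted p = 0.82). Rad23b, a shuttle that brings substrates to the cap, read 9.88, 9.89 and 9.88 on the MLC-SOCS-3 arrays, against 10.01, 9.97 and 9.95 on the control arrays, also without overlap, a difference of -0.095 ± 0.06 (adjusted p = 0.86). Ubqln1, another shuttle, differed by 0.092 ± 0.06. Of the ubiquitin genes and activating enzymes only Uba6 was measured, with a difference of -0.075 ± 0.08.

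The 6 muscle ubiquitin ligases gave 4 positive differences and a median of 0.0067. Fbxo32, or atrogin-1, and Trim63, or MuRF1, the ligases that rise in atrophy, differed by -0.061 ± 0.13 and 0.011 ± 0.21. Trim63 read 11.07 to 11.86 on the control arrays, a range that enclosed the 11.33 to 11.59 of the MLC-SOCS-3 arrays. The smallest p-values of the list belonged to Fbxo30 at 0.098 ± 0.12 (adjusted p = 0.91) and Fbxo40 at 0.076 ± 0.09 (adjusted p = 0.91).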

How the data were processed

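The data are 6 Affymetrix arrays, 3 of MLC-SOCS-3 and 3 of control tibialis anterior muscle, grouped by their titles. The submitters' processing notes name Affymetrix Expression Console and RMA, with no version, and the deposited values are on the log2 scale of RMA intensity. RMA corrects background, equalises the arrays' distributions and summarises the probes of a set, which compresses the folds of dim probe sets. The number of arrays, 3 per group, limits the precision. The table gives neither counts nor detection calls. The values were used as deposited, from 1.41 to 15.1. No pair of arrays shared more than 36 values.

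Of 35557 probe sets, 21789 had 1 gene symbol in the platform annotation, which can be old, 1621 had several and the rest are unnamed here. For the lists, symbols were updated by Entrez identifier, with 21698 probe sets found in RefSeq's GRCm38.p6 table. The two-sided moderated test of limma 3.58.1 (R 4.3.3; lmFit, then eBayes) compared the groups over all probe sets, with Benjamini-Hochberg adjustment over all of them and a threshold of 0.05. Lists are described by counts and medians without a test. The code was tested on simulated data.

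The members and lists were chosen with earlier results of these data known. Named members are the immunoproteasome genes and their counterparts, the activators, the names that are no subunits, and the 8 members with the smallest p in each direction; of each list, up to 3 genes with the smallest p. Further members were named after their values were seen, to account for all. The alternatives were another variance moderation, 2 filters on probe sets, 2 normalizations, a replicate block, leaving out each array, the mean of a gene's probe sets, and subunits alone. Promoter windows are from RefSeq. The 7 motifs and the fold bounds for intervals were chosen after seeing the data; the bound was first 1.25-fold, and 1.3-fold was added later.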

Additional observations from a re-analysis of the deposited data

How the results depend on the processing

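With 3 arrays per group the intervals limit what could be seen, and no adjusted p of a named member was under 0.05 under any of the 13 alternatives (smallest 0.71). Of 286 differences of the 22 named members under the alternatives, 272 kept their sign and 14, of 5 members, did not. Many of these signs were fixed in advance. The variance moderation, the filters and the replicate block leave a difference as it is. So does the mean over probe sets for a gene with 1 probe set. With each array centred on its median, Psmb5 was at 0.0053, Psmb6 at 0.0099, Psmb7 at 0.0016 and Psme1 at 0.014. Leaving out 1 array gave ranges of -0.052 to 0.054 for Psmb5, -0.028 to 0.0088 for Psmb6, -0.051 to 0.0090 for Psmb7, -0.045 to 0.029 for Psme1 and -0.076 to 0.030 for Psme2. For some other named members the sign held but the difference moved by over 1.5 times. Psmb4 ranged from -0.13 (without MLC-SOCS-3 replicate 1) to -0.046 (without control replicate 1). Psmc1 ranged from -0.091 to -0.034 when 1 array was left out, and was -0.0073 with the mean of its probe sets. Psmc6 ranged from 0.051 (without MLC-SOCS-3 replicate 2) to 0.14 (without MLC-SOCS-3 replicate 1). Psmb9 was at -0.22 without MLC-SOCS-3 replicate 1. Psma2 was at 0.051, Psmd5 at 0.040, Psmd12 at 0.041 and Psme3 at 0.032 without control replicate 2, Psmd10 at -0.024 without control replicate 3, and Psme4 at -0.043 without MLC-SOCS-3 replicate 2. The median difference of the members ranged from -0.011 to 0.039 when 1 array was left out, and that of the immunoproteasome genes from -0.20 to -0.11. The number of members with an unadjusted p under 0.05, 1 with all arrays, was 3 with robust moderation along a mean-variance trend, 2 among probe sets above the median level, and 0 to 1 when 1 array was left out. Calls over all probe sets, 0 of 35557, with 2105 at an unadjusted p under 0.05, became 1 (Casp12, named after its value was seen) among the probe sets with 1 gene symbol, and 0 to 1 when 1 array was left out. No call was a member. With the replicate block, 0 members had an unadjusted p under 0.05 and 0 probe sets were called. The deviations of same-numbered samples from their group means correlated at -0.026, -0.018 and -0.043, and no sample correlated best with its own number. Deviations within a group of 3 arrays constrain one another, so these values cannot decide whether the numbers mark a pairing. The cause of these changes was not tested.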
